A study of Mus musculus with 7 samples.

Results

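The mitochondrial ribosomal protein genes were taken as every gene symbol beginning with Mrpl or Mrps and a number, leaving out symbols marked as pseudogenes, which gave 78 genes of the 56422 symbols in the table. By the roles assigned to their proteins, 26 belong to the small subunit and 51 to the large subunit. The large-subunit group includes Mrps30 and Mrps18a, the 2 genes that carry a small-subunit name although structures of the mammalian mitoribosome place their products in the large subunit. The remaining gene, Mrps36, is named for the ribosome but encodes a component of the 2-oxoglutarate dehydrogenase complex. It was kept because the symbol rule includes it, and it was counted in neither subunit.

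Polyadenylated RNA was sequenced from samples labelled as CD8+ T cells, cytotoxic lymphocytes, taken from the peritoneal fluid of mouse models of peritoneal metastasis. Both groups therefore share the tumour model, and they differ by the labels in treatment alone. The comparison asks how expression in these samples differs after this pair of short-chain fatty acids, products of bacterial fermentation in the gut. There were 3 libraries from the group given propionate and butyrate together, called treated here, and 4 libraries from the control group, whose treatment is labelled as none. The labels used here give no strain, age, dose, duration or tumour line, and no genetic change. They do not say that the libraries are from separate animals. The p-values therefore reflect the variation among these libraries, which may be technical. One treated column carries a number that no treated sample has and is called the third treated library.

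The mitochondrial ribosome translates the few proteins encoded by mitochondrial DNA, all of them core subunits of the respiratory chain and ATP synthase. Its RNAs come from the mitochondrial genome, whereas all of its proteins are encoded in the nucleus, made in the cytosol and imported. The small subunit reads the messenger RNA and holds the decoding centre, and the large subunit joins amino acids and releases the growing chain at the inner membrane. Some of the proteins descend from the bacterial ribosome, and others were acquired by mitochondria. Activated T cells are known to raise mitochondrial translation when they divide and become effector cells.

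Expression was given as TPM, a measure of transcript abundance corrected for length that gives all libraries an equal total, so sequencing depth is not carried and no counting interval could be given. Between 13914 and 14949 symbols reached 1 TPM per library. The third treated library stood apart. Mitochondrially encoded genes held 32.9% of the TPM there and 13.6% to 18.2% in each of the remaining 6 libraries, and 11 symbols whose transcripts align to mitochondrial genes held a further 20.2%, against 8.52% to 11.1%. A large share held by such genes lowers the TPM of every other gene in the library by construction. All 12 T cell markers rose in the treated group (limma with Benjamini-Hochberg adjustment, adjusted p under 0.05), with a summed level of 647 to 2733 TPM in treated libraries and 132 to 229 TPM in control libraries. Macrophage markers summed to 3307 to 4034 TPM in treated libraries and 6095 to 14765 TPM in control libraries, with 1 of 8 called lower by the same test. Of 6 tested epithelial and mesothelial markers of 7 listed, 5 fell, the sums being 815 to 1532 TPM in treated and 2145 to 2651 TPM in control libraries. All 4 erythroid markers fell (24.5 to 84.4 TPM in treated and 95.1 to 503 TPM in control libraries), as did all 4 fibroblast markers (114 to 223 TPM in treated and 279 to 317 TPM in control libraries). None of the 4 B cell markers was called (60.5 to 90.2 TPM in treated and 27.8 to 99.4 TPM in control libraries). None of these markers was at 0 in all 7 libraries. In every library the macrophage sum exceeded the T cell sum, but Apoe and Lyz2 held most of the macrophage sum. In treated 2 they had 1417 and 1233 TPM of 3307 TPM. The epithelial and mesothelial sum also exceeded the T cell sum in treated 1 (1532 against 1209 TPM) and in the third treated library (815 against 647 TPM). In treated 2 it did not (972 against 2733 TPM). Sums of unlike marker lists do not give shares of cells in either group, and they do not settle the label in the treated libraries. In the controls the T cell sum was at most 229 TPM, beside at least 6095 TPM for macrophage markers and 2145 TPM for epithelial and mesothelial markers. The control values thus go against the label of CD8+ T cells, without giving a share of cells. Expression is described here for the samples as a whole. The part of these differences in the results that follow was not tested. In bulk samples like these, fewer cells of a type and less RNA per cell cannot be told apart.

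Mitoribosomal transcripts were lower on average in treated libraries, but most of the individual differences did not pass the test. Every one of the 78 genes reached 1 TPM in at least 3 of the 7 libraries and was tested. Expression was compared on log2(TPM + 1) with limma across all 14967 tested genes, with Benjamini-Hochberg adjustment, and a gene was called at an adjusted p under 0.05. Of the 78 genes, 7 fell, or 8.97%, beside 7.59% of all tested genes called lower. None rose, beside 4.3% of all tested genes called higher, and none was higher at an unadjusted p under 0.05. In this fit, without rescaling, the share called is therefore close to that of all tested genes. At an unadjusted p under 0.05, 39 of the 78 were lower, against 23.6% of all tested genes. The count called lower depended on scaling. Rescaled without mitochondrially encoded genes it was 20 of the 78, beside 12.09% of all tested genes. With the symbols aligning to them also removed it was 15, beside 7.98%. Upper-quartile scaling gave 22, beside 11.6%, and median-of-ratios scaling gave 6, beside 6.74%.

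The log2 fold change of treated over control was negative for 77 of the 78 genes, as it was for 73.4% of all tested genes. The 73.4% is from the fit to all 7 libraries without rescaling. Under median-of-ratios scaling 60 of the 78 were negative, where the median over all tested genes was -0.02. Without the third treated library 65 were negative, where that median was -0.08. With all 7 libraries and no rescaling, the median log2 fold change over the 78 was -0.46. The interquartile range was -0.54 to -0.25, the full range was -0.77 to 0.08, and standard errors ran from 0.19 to 0.33. The median over all tested genes was -0.24, so the mitoribosomal median lay at -0.21 relative to it. Of the 78 genes, 60 lay below the median of all tested genes. The 95% intervals of 72 of the 78 nevertheless held that median, and 39 held 0. On the linear scale the treated mean was 0.584 to 1.09 times the control mean, with a median ratio of 0.736.

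**Figure D1:**
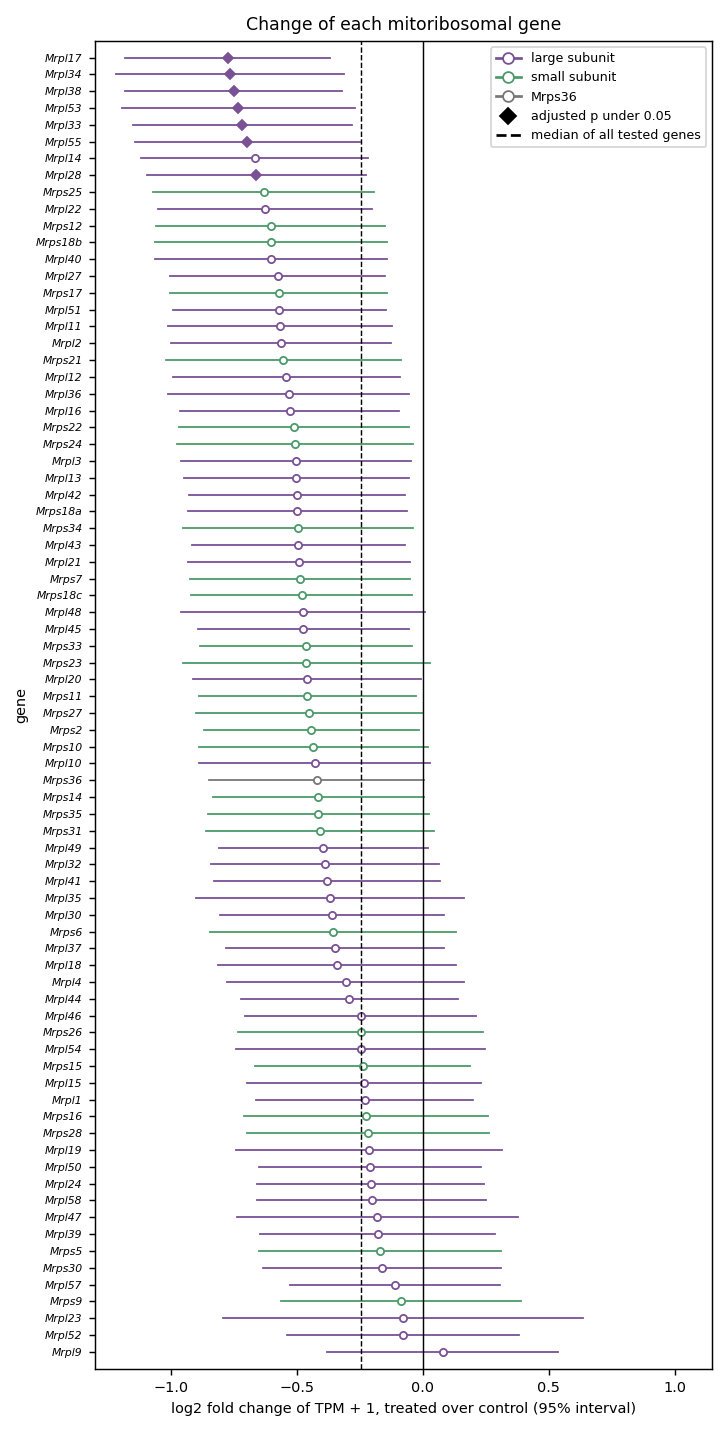
Log2 fold change of TPM + 1, treated over control, for each of the 78 genes, with its limma 95% interval (3 treated and 4 control libraries); colours give the subunit, filled diamonds the 7 genes at an adjusted p under 0.05, the dashed line the median of all tested genes and the solid line no difference. All 7 filled points are large-subunit genes, and Mrpl9 is the 1 point right of the solid line.

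In 43 of the 78 genes (55.1%) every treated library was below every control library, whereas 25.7% of all tested genes showed that order. The opposite order was seen in none of the 78 and in 4.82% of all tested genes. The third treated library was the lowest of the 7 for all 78 genes, and control 2 was the highest for 55. Relative to the mean of the controls on the log2 scale, the median of the 78 was -0.21 in treated 1, -0.27 in treated 2 and -0.85 in the third treated library, against -0.07, 0.15, 0.00 and -0.07 in control 1 to control 4. After subtracting the same median over all tested genes, the values were -0.19, -0.15 and -0.27 in the treated libraries, against -0.04, 0.17, -0.05 and -0.06 in the controls. All 3 treated libraries thus remained below all 4 controls, and the third was no longer far from the other 2. Without the third treated library the median of the 78 was -0.26, that of all tested genes -0.08, and 3 of the 78 were called lower, beside 4.31% of all tested genes.

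**Figure D2:**
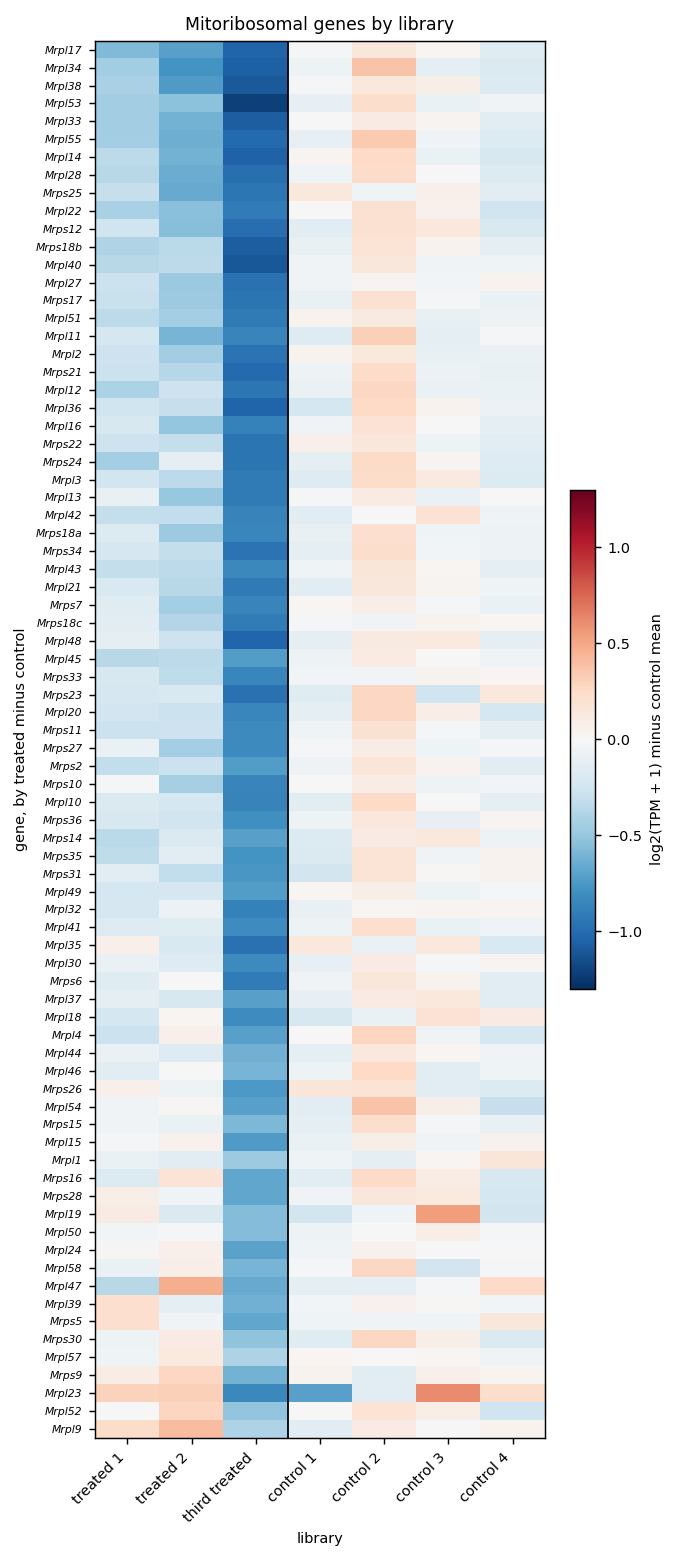
Each of the 78 genes in each of the 7 libraries (treated left of control), as log2(TPM + 1) minus its mean over the 4 controls. The third treated library is the lowest column for all 78 genes, and control 2 is the highest for 55.

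The large subunit held all 7 genes that fell. Mrpl17, the mitochondrial counterpart of bacterial ribosomal protein L17, had 60.5, 55.3 and 43.5 TPM in treated libraries, against 89.9, 101, 92.2 and 81.1 TPM in control libraries. All 3 treated libraries lay below all 4 controls, with the third treated library lowest. Its mean was 53.1 ± 8.72 TPM in treated and 90.9 ± 7.97 TPM in control libraries (SD, n = 3 and n = 4), a log2 fold change of -0.77 (SE 0.19, limma Benjamini-Hochberg adjusted p = 0.0178). Mrpl33, the counterpart of bacterial L33 and the second of the 78 by mean TPM over all libraries, had 261, 233 and 169.5 TPM in treated libraries, against 359, 384, 366 and 324 TPM in control libraries. Again the groups did not overlap and the third treated library was lowest. The means of Mrpl33 were 221 ± 46.7 TPM in treated and 358 ± 25.3 TPM in control libraries (SD, n = 3 and n = 4), with a log2 fold change of -0.72 (SE 0.20, limma adjusted p = 0.0357). By the same test Mrpl17 kept its call without each treated library and without control 3 or control 4, but not without control 1 or control 2.

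The sequences around the start sites of Mrpl17 and Mrpl33, 2 of the genes that fell, and of Mrpl9, whose fold change was positive, are shown because nuclear genes for mitochondrial proteins are known targets of the transcription factors NRF1, the ETS factor GABP and YY1. The windows are from RefSeq, build GRCm38.p6, from 250 bases before to 50 after the annotated start, read 5′ to 3′ on the gene's strand. Capitals mark the letters of 2 motifs found by search, GCATGCGC for NRF1 and CCGGAAGT for ETS factors, on either strand. The Mrpl17 window is chr7:105811038-105811337 on the minus strand, that of Mrpl33 is chr5:31613701-31614000 on the plus strand, and that of Mrpl9 is chr3:94443086-94443385 on the plus strand.
Mrpl17: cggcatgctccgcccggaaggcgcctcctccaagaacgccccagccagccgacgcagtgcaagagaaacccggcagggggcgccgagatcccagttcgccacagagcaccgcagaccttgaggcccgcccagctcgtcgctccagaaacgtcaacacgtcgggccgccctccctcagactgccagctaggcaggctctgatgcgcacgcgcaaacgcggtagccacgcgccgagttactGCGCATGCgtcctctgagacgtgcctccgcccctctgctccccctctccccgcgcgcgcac
Mrpl33: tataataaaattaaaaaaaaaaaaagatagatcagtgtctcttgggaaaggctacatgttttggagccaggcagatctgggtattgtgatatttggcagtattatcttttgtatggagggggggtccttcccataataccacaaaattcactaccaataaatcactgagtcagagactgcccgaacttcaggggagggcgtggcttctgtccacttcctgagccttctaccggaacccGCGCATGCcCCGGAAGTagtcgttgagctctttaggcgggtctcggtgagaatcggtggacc
Mrpl9: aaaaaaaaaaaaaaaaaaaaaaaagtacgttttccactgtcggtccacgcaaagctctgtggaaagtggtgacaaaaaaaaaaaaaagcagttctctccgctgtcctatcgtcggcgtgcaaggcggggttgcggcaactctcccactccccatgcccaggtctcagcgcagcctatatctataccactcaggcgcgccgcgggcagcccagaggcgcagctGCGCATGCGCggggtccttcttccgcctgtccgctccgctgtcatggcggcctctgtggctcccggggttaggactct
In Mrpl17 the NRF1 letters stand on the opposite strand just before the start. The Mrpl33 window has the NRF1 letters on the opposite strand, followed 1 base later by the ETS letters. In Mrpl9 the NRF1 letters overlap on both strands as a palindrome. A match describes the letters in the window and not a bound site, and the 3 windows with the NRF1 letters belong to genes with and without a called difference.

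Windows were on hand for 69 of the 78 genes, 75 windows in all, and were searched on both strands. The NRF1 letters occurred in 10.7% of the 75 windows and in 2.71% of all 32851 windows of the table. The ETS letters occurred in 16.0% of the 75 and in 3.89% of all windows, and the YY1 letters AAGATGGC in 16.0% and 2.75%. Any of the 3 occurred in 29 of the 75 windows (38.7%), against 8.83% of all windows. The windows of all genes were not limited to genes tested here, whereas all 78 genes were tested. These shares therefore do not set the 78 apart from other expressed genes. Over genes, the median log2 fold change was -0.49 for the 29 genes with a match and -0.43 for the 40 without, a description with no test. Of the 7 genes that fell, 6 had a window and 2 of these had a match, in Mrpl17 and Mrpl33.

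The other 5 genes that fell were Mrpl34 and Mrpl28, which have bacterial counterparts, and Mrpl38, Mrpl53 and Mrpl55, which are particular to mitochondria. Mrpl34 had 51.4, 40.8 and 33.3 TPM in treated and 67.3, 91.8, 65.1 and 61.9 TPM in control libraries. Mrpl28 had 39.6, 32.3 and 25.4 TPM in treated and 49.1, 60.4, 50.8 and 44.8 TPM in control libraries. In both genes the groups were separate, and the highest value was in control 2. The log2 fold changes were -0.77 (SE 0.21) for Mrpl34 and -0.66 (SE 0.20) for Mrpl28, with limma adjusted p = 0.0321 and adjusted p = 0.0487. Mrpl38, a protein of the central protuberance of the large subunit, had 56.8, 45.5 and 35.2 TPM in treated and 74.9, 84.0, 80.4 and 67.3 TPM in control libraries. Its groups did not overlap, and the highest treated library lay well below the lowest control. The log2 fold change of Mrpl38 was -0.75 (SE 0.20, limma adjusted p = 0.0281). For Mrpl53 the values were 44.8, 42.2 and 25.9 TPM in treated and 57.2, 72.5, 58.0 and 59.5 TPM in control libraries. For Mrpl55 they were 31.4, 27.3 and 20.7 TPM in treated and 39.8, 54.6, 41.5 and 37.7 TPM in control libraries. Control 2 stood above the other controls in both, and no treated library reached a control. The fold change was -0.73 (SE 0.22, limma adjusted p = 0.0416) for Mrpl53 and -0.70 (SE 0.21, limma adjusted p = 0.0444) for Mrpl55, both on the log2 scale. Mrpl14 and Mrpl22, counterparts of bacterial L14 and L22, came nearest to the threshold from outside, with log2 fold changes of -0.67 and -0.63 and limma adjusted p = 0.0533 and adjusted p = 0.0531.

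**Figure D3:**
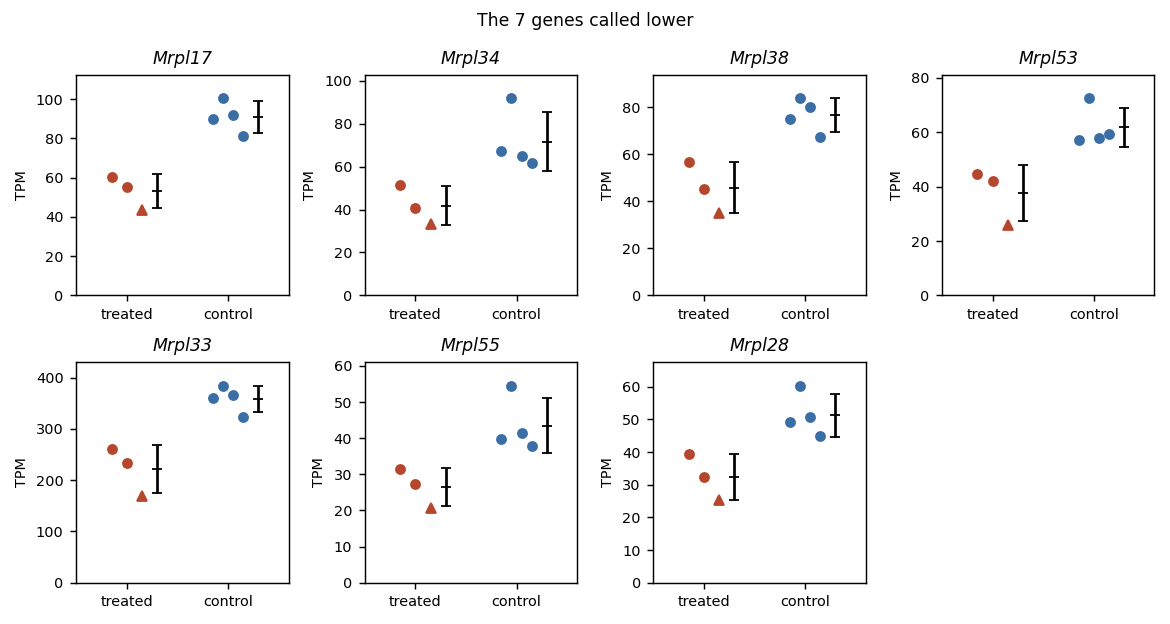
TPM of the 7 genes that fell, one panel each, in 3 treated (left) and 4 control (right) libraries; points are libraries, the triangle is the third treated library, and bars are the mean and SD. In each panel every treated point is below every control point.

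The calls of the 7 depended on single libraries. Without the third treated library 3 stayed called (Mrpl17, Mrpl33 and Mrpl38), and without treated 2 only Mrpl17 did. Without control 3, Mrpl17 and Mrpl34 stayed, and without control 4, Mrpl17, Mrpl34 and Mrpl38. None of the 7 stayed called without control 1 or without control 2. The share of all tested genes called lower was also smaller in these fits, beside 7.59% with all 7 libraries. It was 4.31% without the third treated library and 3.55% without treated 2. Without control 1 to control 4 it was 4.36%, 3.71%, 4.74% and 4.98%. Without treated 1, by contrast, all 7 stayed and the count of the 78 called lower was 26, while the share of all tested genes called lower was 19.4%. In every one of these fits the log2 fold change of each of the 7 genes remained negative, between -0.92 and -0.49.

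Mrpl12, Mrpl11 and Mrpl10, of the large-subunit stalk where translation factors dock, did not pass the test singly. Mrpl12, the stalk protein itself, had 30.8, 34.2 and 21.2 TPM in treated and 38.9, 50.1, 38.9 and 39.0 TPM in control libraries. Mrpl11, at the base of the stalk, had 58.1, 44.7 and 37.2 TPM in treated and 60.9, 85.0, 62.6 and 67.5 TPM in control libraries. Mrpl10, which anchors Mrpl12, had 34.7, 33.5 and 21.2 TPM in treated and 36.0, 47.6, 39.4 and 36.4 TPM in control libraries. For all 3 genes the treated values lay below the control values without overlap. Their log2 fold changes were -0.54 (SE 0.21), -0.57 (SE 0.21) and -0.43 (SE 0.22), with limma adjusted p = 0.102, adjusted p = 0.0874 and adjusted p = 0.191.

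Other large-subunit genes had smaller differences. Mrpl58, a hydrolase that frees peptides from stalled mitoribosomes, had 46.3, 52.4 and 32.1 TPM in treated and 48.9, 59.5, 41.8 and 48.5 TPM in control libraries, and the groups overlapped (-0.20, SE 0.21 on the log2 scale). Mrpl44, which has a ribonuclease III-like fold, had 19.8, 18.7 and 13.4 TPM in treated and 19.4, 23.3, 21.6 and 20.4 TPM in control libraries, with treated 1 above control 1 (-0.29, SE 0.20). Mrps30 had 12.1, 13.8 and 8.57 TPM in treated and 11.4, 15.5, 13.5 and 11.1 TPM in control libraries, with treated 2 above 3 of the 4 controls (-0.16, SE 0.22). In these 3 genes the third treated library was below every control, and in Mrpl44 treated 2 was as well. Mrpl24, the third of the 78 by mean TPM, likewise had 119, 124 and 72.6 TPM in treated and 113, 123, 118 and 118 TPM in control libraries. Treated 1 lay inside the control range, treated 2 just above it and the third treated library below it, for a log2 fold change of -0.21 (SE 0.21). The limma adjusted p was 0.338 for Mrpl44 and from 0.521 to 0.639 for Mrpl24, Mrpl58 and Mrps30.

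Mrpl9, the counterpart of bacterial L9, was the 1 gene with a positive log2 fold change. It had 44.4, 50.1 and 28.2 TPM in treated libraries, against 34.0, 40.5, 37.4 and 38.8 TPM in control libraries. Treated 1 and treated 2 were above every control and the third treated library was below every control. The fold change was 0.08 (95% interval -0.38 to 0.54, limma adjusted p = 0.826), an interval that holds both 0 and the median of all tested genes.

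The 3 genes with the lowest levels were Mrpl23, Mrpl47 and Mrpl19, counterparts of bacterial L23, L29 and L19. Mrpl47 had 6.67, 12.7 and 5.26 TPM in treated and 8.11, 8.06, 8.71 and 10.7 TPM in control libraries, and Mrpl19 had 13.4, 10.7 and 8.01 TPM in treated and 10.3, 11.8, 18.4 and 10.3 TPM in control libraries. Both overlapped between the groups. Mrpl23 had 7.77, 7.83 and 2.99 TPM in treated and 3.37, 5.50, 9.90 and 7.39 TPM in control libraries, with a 95% interval of -0.79 to 0.64 on the log2 scale. This low level is uncertain, because a transcript of Mrpl23 matched the excluded pseudogene Mrpl23-ps1 at 100% identity over 540 bases. Mrpl23-ps1 had 69.5, 66.2 and 41.2 TPM in treated libraries, against 66.9, 79.0, 73.0 and 63.4 TPM in control libraries. The sum of the pair was 77.3, 74.0 and 44.2 TPM in treated and 70.3, 84.5, 82.9 and 70.8 TPM in control libraries. The summed values of treated 1 and treated 2 lay inside the control range and that of the third treated library below it. For Mrps34, a near-identical stretch was shared with Nme3 (99.8% over 642 bases), and for Mrps24 with Urgcp (99.6% over 231 bases). How reads were divided among such copies is not stated by the labels.

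None of the 26 small-subunit genes was called by limma, although 14 were lower at an unadjusted p under 0.05 and all 26 fold changes were negative. Their median log2 fold change was -0.46, beside -0.46 for the 51 large-subunit genes, of which 25 were lower at an unadjusted p under 0.05. Of all tested genes 23.6% were lower at that threshold. Mrps12, part of the decoding centre, had 48.6, 39.5 and 28.9 TPM in treated and 53.1, 67.1, 64.5 and 50.8 TPM in control libraries, with no overlap between the groups (-0.60, SE 0.21, limma adjusted p = 0.0768). Mrps21, the counterpart of bacterial S21 and the first of the 78 by mean TPM over all libraries, had 289.6, 271 and 175 TPM in treated and 335, 414, 335 and 330.0 TPM in control libraries. Its treated values were all below its control values, and control 2 stood above the other 3 controls (-0.55, SE 0.22, limma adjusted p = 0.106). Mrps25, a protein particular to mitochondria, had the most negative fold change of the small subunit, with 22.3, 17.2 and 14.0 TPM in treated and 30.5, 26.6, 29.2 and 24.9 TPM in control libraries (-0.63, SE 0.21, limma adjusted p = 0.0577).

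The 3 Mrps18 paralogues occupy different places in the ribosome, and only Mrps18c was counted among the proteins with a bacterial counterpart. Mrps18c had 105, 89.3 and 61.7 TPM in treated and 115, 114, 120.3 and 119 TPM in control libraries. Mrps18b, also of the small subunit, had 30.6, 31.4 and 18.7 TPM in treated and 37.6, 45.7, 41.7 and 37.0 TPM in control libraries. Mrps18a, of the large subunit, had 50.3, 40.8 and 31.2 TPM in treated and 53.0, 66.4, 54.8 and 54.4 TPM in control libraries. In each paralogue every treated library was below every control. The log2 fold changes were -0.48 (SE 0.21), -0.60 (SE 0.22) and -0.50 (SE 0.20), and none passed the limma threshold (adjusted p = 0.131, adjusted p = 0.0794 and adjusted p = 0.119). Mrps36, of the dehydrogenase complex, had 72.7, 69.9 and 47.7 TPM in treated and 80.2, 92.5, 77.7 and 85.8 TPM in control libraries (-0.42, SE 0.20, limma adjusted p = 0.168), also without overlap.

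By origin, 4 of 29 large-subunit genes with a bacterial counterpart fell (median log2 fold change -0.49), as did 3 of 22 particular to mitochondria (median -0.39). In the small subunit the medians were -0.44 over 15 genes with a bacterial counterpart and -0.46 over 11 particular to mitochondria, with none called and 8 and 6 lower at an unadjusted p under 0.05. Of all tested genes 7.59% were called lower and 23.6% were lower at an unadjusted p under 0.05, with a median of -0.24. The classes were not tested against each other. Across the 78 genes the fold change was lower where the level was higher, with a Spearman correlation of -0.50. Across all 14967 tested genes it was -0.22, with level taken as mean log2(TPM + 1) there and as mean TPM for the 78. Both levels include the treated libraries. The 2 correlations are descriptions over genes that share the same 7 libraries. The coefficient of variation between libraries had a median of 24.5% in the treated and 10.1% in the control group over the 78 genes, beside 26.8% and 13.1% over all tested genes.

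Treated libraries held less mitoribosomal transcript in sum, while the ratio of the subunits overlapped between the groups. Summed over the 78 genes, transcripts amounted to 3766, 3591 and 2374 TPM in treated libraries, against 4233, 4947, 4430 and 4201 TPM in control libraries. Every treated sum was below every control sum, with means of 3244 ± 758 TPM (SD, n = 3) and 4453 ± 344 TPM (SD, n = 4). Large-subunit transcripts exceeded small-subunit transcripts 1.81, 1.81 and 1.86 times in treated and 1.86, 1.83, 1.89 and 1.80 times in control libraries, so the ratios overlapped. With mitochondrially encoded genes and the symbols that align to them taken out of the total, the 78 genes held 5222, 4822 and 5095 rescaled TPM in treated libraries, against 6023, 6587, 5717 and 5959 rescaled TPM in control libraries. On that scale the third treated library lay between the other 2, and the groups were still separate.

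**Figure D4:**
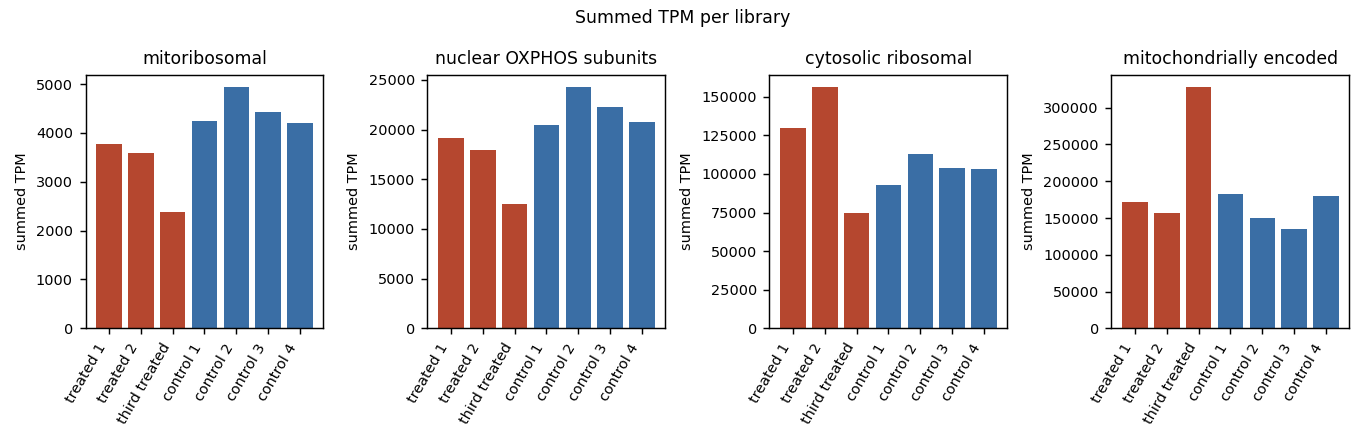
Summed TPM in each of the 7 libraries (bars, treated left of control) of the 78 mitoribosomal genes, the nuclear oxidative phosphorylation (OXPHOS) subunits, the cytosolic ribosomal protein genes and the mitochondrially encoded genes, each panel on its own scale from 0. The treated mitoribosomal sums of 2374 to 3766 TPM lie below the control sums of 4201 to 4947 TPM, and the mitochondrially encoded sum is highest in the third treated library.

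The nuclear genes for oxidative phosphorylation encode the partners of the proteins that the mitochondrial ribosome makes, and their values were near the mitoribosomal ones. Of 81 tested oxidative phosphorylation subunits 3 fell and none rose by limma, none being higher at an unadjusted p under 0.05, and the median log2 fold change was -0.41. At an unadjusted p under 0.05, 32 of the 81 were lower, and in 38 every treated library was below every control, beside 39 and 43 of the 78 mitoribosomal genes. The mitoribosomal sum was 19.6%, 20.0% and 18.9% of the oxidative phosphorylation sum in treated libraries, against 20.6%, 20.3%, 19.9% and 20.2% in control libraries. Treated 2 lay above control 3, so this share overlapped between the groups. Cytosolic ribosomal protein genes had a median of 0.13, with 1 of 83 called higher and none lower (1 lower at an unadjusted p under 0.05), and the median was -0.07 without treated 2 and 0.43 without the third treated library. The mitoribosomal sum was 2.90%, 2.29% and 3.18% of the cytosolic ribosomal protein sum in treated libraries, against 4.55%, 4.37%, 4.26% and 4.08% in control libraries, without overlap. The 13 protein genes of mitochondrial DNA, which these ribosomes translate, had a median of 0.35 with none called, 3 being higher and none lower at an unadjusted p under 0.05. Without the third treated library that median was -0.01.

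Genes that work with the mitochondrial ribosome had smaller median differences. Of 5 subunit genes with other names, none was called and 1 was lower at an unadjusted p under 0.05 (median log2 fold change -0.30). That gene was Dap3, a GTP-binding protein of the small subunit, with 107, 86.9 and 67.1 TPM in treated and 125, 139.6, 138 and 121 TPM in control libraries (-0.61, limma adjusted p = 0.0598). Of 15 translation factors none was called and 1 was lower at an unadjusted p under 0.05 (median -0.26). That factor was Tufm, which delivers aminoacyl-tRNA, with 57.5, 54.9 and 33.7 TPM in treated and 66.2, 84.6, 65.2 and 62.2 TPM in control libraries (-0.53, limma adjusted p = 0.121). Of 28 genes for assembly and ribosomal RNA modification none was called and 4 were lower at an unadjusted p under 0.05 (median -0.26).

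Transfer RNA charging and mitochondrial RNA processing each held 2 genes that fell, of 19 tested of 20 listed and of 13 tested, with medians of -0.31 and -0.36. Lars2, the mitochondrial leucyl-tRNA synthetase, had 29.1, 30.8 and 39.1 TPM in treated libraries, against 304, 114, 88.3 and 38.6 TPM in control libraries. The controls spread widely, and the lowest control lay below the third treated library. Its fold change of -1.65 (SE 0.46, limma adjusted p = 0.0329) lost its call when the values were rescaled without mitochondrially encoded genes (adjusted p = 0.0844). Slirp, which stabilises mitochondrial messenger RNA, had 21.2, 17.5 and 14.9 TPM in treated and 29.6, 26.8, 25.4 and 35.5 TPM in control libraries (-0.69, limma adjusted p = 0.0421). Hsd17b10, a subunit of mitochondrial ribonuclease P, had 98.1, 84.0 and 66.4 TPM in treated and 122, 150.5, 133 and 122 TPM in control libraries (-0.68, limma adjusted p = 0.0376). In Slirp and Hsd17b10 the groups did not overlap.

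Among 9 regulators of nuclear genes for mitochondria none was called, and the median was -0.14. Esrra, a nuclear receptor, was the 1 lower at an unadjusted p under 0.05, with 21.0, 20.3 and 14.6 TPM in treated and 28.5, 29.2, 30.3 and 25.9 TPM in control libraries (-0.60, limma adjusted p = 0.0594). Of 14 proliferation genes 6 fell, with a median of -0.47 and a summed level of 371, 452 and 247 TPM in treated libraries, against 503, 567, 525 and 447 TPM in control libraries. The sums overlapped between treated 2 and control 4. Plk1 and Cdk1, kinases of mitosis, had the smallest p of the 6. Plk1 had 4.68, 4.94 and 2.13 TPM in treated and 10.4, 12.9, 9.66 and 8.12 TPM in control libraries (-1.24, limma adjusted p = 0.00764). Cdk1 had 24.1, 25.4 and 11.7 TPM in treated and 43.1, 61.3, 40.8 and 39.6 TPM in control libraries (-1.19, limma adjusted p = 0.00986). The part of proliferation in the mitoribosomal values was not tested.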

How the data were processed

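RNA was extracted with TRIzol and poly(A)-selected with oligo(dT) beads before stranded library preparation, per the labels' protocols. Values are TPM as the authors deposited them, in 1 table whose 149132 rows are transcripts marked by gene symbol alone. The submitters' processing notes name fastp, HISAT2, StringTie and build mm39, and no source used here names the program that computed TPM. TPM keeps no depth, so precision rests on the spread between libraries. Columns were matched to samples by name, and there were 0 other columns of values. The third treated column, whose number no treated sample carries, was used unnumbered and never paired.

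TPM was summed over the rows of each symbol, and 1001 rows without a symbol were left out. Genes with at least 1 TPM in at least 3 of 7 libraries were tested in R 4.3.3 with limma 3.58.1 on log2(TPM + 1), with an intensity trend and Benjamini-Hochberg adjustment over all 14967 genes. On this scale the fold changes of low genes are understated. The test was run on simulated data first. The members and lists were chosen with earlier results of these data known. Members were named by smallest adjusted p, largest fold change in each direction, highest and lowest level, or a stated role, and up to 2 called genes were named per other list, of which 1 is not reported here; Mrpl14, Mrpl22, Mrps25, Mrps24, Mrps34, Mrpl40, Dap3, Tufm, Esrra, the near-identical genes and those whose control libraries stand apart were chosen after their values were seen. Near-identical transcripts (at least 95% identity over at least 200 bases) were found by alignment of an earlier annotation, and the promoter windows are of an earlier build, so neither gives coordinates of the authors' build. Alternatives changed the pseudocount, filter, scaling, row summary, variance model and library weights, used a replicate block, and left out each library in turn.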

Additional observations from a re-analysis of the deposited data

Results flagged for a closer look

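In 9 of 82 values checked over the 4 control libraries, 1 control stood apart. It lay farther from its nearest neighbour than Dixon's 95% critical value for 4 samples allows. Chance alone flags about 1 in 20 independent groups. The values checked come from the same 4 libraries, so 1 library can be flagged in many of them together. The 9 can therefore not be set against that rate. Control 2 was the highest in 6 of the 9, at 50.1 TPM for Mrpl12, 65.4 TPM for Mrpl40, 49.9 TPM for Mrpl41, 72.5 TPM for Mrpl53, 66.4 TPM for Mrps18a and 414 TPM for Mrps21. For Mrpl40 the treated libraries had 45.7, 46.1 and 26.8 TPM, against 56.9, 57.1 and 56.4 TPM in the other 3 controls. For Mrpl41 they had 38.0, 38.2 and 23.9 TPM, against 40.8, 40.2 and 41.1 TPM in the other 3 controls. Control 2 was also the lowest control for Mrps9, at 27.0 TPM. Control 1 was the lowest for Mrpl32, at 49.4 TPM, and control 4 was the highest for Mrps5, at 26.6 TPM.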

How the results depend on the processing

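Among the 78 genes 7 were called lower, and the alternatives gave 0 without the filter on low values, 4 without the intensity trend, 20 when rescaled without mitochondrially encoded genes, 15 when rescaled without these and the symbols aligning to them (added after the data were seen), 22 with upper-quartile scaling and 32 with array weights. Array weights also called 1 gene higher, Mrpl9. The share of all tested genes called lower was 7.59% in the main fit, 0.01% without the filter and 6.67% without the trend. It was 12.09% when rescaled without mitochondrially encoded genes and 7.98% when the symbols aligning to them were removed too. Upper-quartile scaling gave 11.6% and array weights gave 28.2%. The larger count of the 78 with array weights thus came with a larger share of all tested genes. Leaving out 1 library at a time gave 0 to 26 of the 78 called lower. The totals that follow count both directions. Over all tested genes 1779 were called, against 7 without the filter, 2747 when rescaled without mitochondrially encoded genes, 2891 with upper-quartile scaling, 6467 with array weights and 964 to 3434 with a library left out. The median log2 fold change of the 78 was -0.21 with median-of-ratios scaling, where that of all tested genes was -0.02. Relative to all tested genes it was -0.41 without the filter and -0.11 with array weights. With a library left out, the median ran from -0.56 to -0.26, and from -0.23 to -0.13 relative to all tested genes.

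Fold changes near 0 turned positive in some settings. That of Mrpl23 did so when rescaled without mitochondrially encoded genes (0.008), without these and their copies (0.10), with median-of-ratios (0.125) and upper-quartile scaling (0.071) and with array weights (0.385), and lay between -0.315 and 0.302 with a library left out. With the copies removed, median-of-ratios scaling and array weights it was 0.008, 0.043 and 0.323 for Mrpl47, 0.009, 0.045 and 0.055 for Mrpl24, 0.011, 0.046 and 0.081 for Mrpl58 and 0.037, 0.069 and 0.155 for Mrps30. It was 0.009 for Mrps30 with upper-quartile and 0.017 for Mrpl19 with median-of-ratios scaling. With a library left out it ran from -0.507 to 0.057 for Mrpl47, -0.341 to 0.038 for Mrpl24, -0.295 to 0.018 for Mrps30 and -0.085 to 0.320 for Mrpl9. The cause of these changes was not tested.

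Replicate numbers recur in both groups, the labels do not call them pairs, and columns of both groups exist for numbers 1 and 2 alone. Deviations from the group means correlated at -0.02 for number 1 and at -0.09 for number 2, and at 0.17 and 0.03 for the crossed pairs, so the numbers were not taken to pair the libraries. A fit with the replicate block over these 4 libraries called 0 of the 78 genes and 712 of all tested genes. In it the fold change was 0.723 for Mrpl23, 0.173 for Mrpl47, 0.110 for Mrpl19 and 0.038 for Mrpl24. Across single genes named here and all alternatives, 459 values kept their direction and side of the threshold, 95 lost the call, 17 gained it and 29 changed sign.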

Other observations

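The table gives several transcript rows per symbol without identifiers, so a row cannot be tied to a known isoform. Of the 78 genes 64 had at least 2 rows at a mean of at least 1 TPM. In 10 of these the share of the gene's TPM held by the leading row did not overlap between the groups, 2 being higher and 8 lower in treated libraries. That is 15.6%, beside 19.8% of all 7843 symbols with such rows. The means differed by at least 10 percentage points in 4 of the 10, singled out after their values were seen. That is 6.25% of the 64, beside 8.31% of the 7843 symbols, so such differences were not more frequent among the 78 genes. The leading row of Mrps24 held 39.1%, 47.3% and 35.7% in treated libraries, against 57.0%, 56.5%, 57.7% and 57.5% in control libraries. For Mrps34 it held 83.0%, 75.3% and 79.5% in treated libraries, against 88.6%, 91.8%, 91.4% and 86.7% in control libraries. It was higher in treated libraries for Mrpl40 (57.0% ± 4.6 against 45.7% ± 1.6 in control libraries) and for Mrps25 (71.5% ± 9.1 against 57.2% ± 4.3 in control libraries; SD, n = 3 and n = 4). No test was made, and Mrps24 and Mrps34 share near-identical stretches with other genes.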
